A study of Rattus norvegicus with 40 samples.

Results

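The miR-183, miR-96 and miR-182 cluster was represented by 5 of the 752 miRNAs of the count table, chosen as every name with the stem miR-182, miR-183 or miR-96 on any arm (rno-miR-182, rno-miR-183-5p, rno-miR-183-3p, rno-miR-96-5p and rno-miR-96-3p). The 3 hairpins lie next to each other and are generally transcribed together as one precursor. The cluster is best known from sensory cells, among them photoreceptors and the hair cells of the inner ear, where its members take part in differentiation and upkeep, and it is also expressed in epithelia and in activated lymphocytes. A miRNA silences mRNAs that pair with its seed, and the 5p members of the cluster have closely related seeds.

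The libraries hold small RNA from plasma of adult male Sprague-Dawley rats. Blood came from the tail vein, 2 days (D2) and 9 days (D9) after surgery. The surgery was a lateral fluid-percussion injury (TBI) or a sham operation. The injured rats were divided by later outcome into 7 with epilepsy (TBI+) and 9 without (TBI−), as defined by video-EEG in the sixth month, and there were 4 sham rats. Each of the 20 rats gave 1 library per day, 40 in all. Library totals ranged from 140636 to 2864893 counts, and the sham libraries of D9 were among the lowest (140636, 162125, 202059 and 358202). In those libraries 3 reads corresponded to 8.38 to 21.3 CPM, compared with 2.25 to 5.05 CPM in the sham libraries of D2. The library numbers in the sample titles fell into 3 runs that were not balanced over groups. All 4 sham rats and TBI+ rats 1 to 4 were in the first run on D2 and in the third run on D9. The labels do not say whether a run was a batch. Between the days every sham rat, every TBI+ rat and 7 of 9 TBI− rats changed run. In sham rats, day and run cannot be told apart.

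The 3 hairpins are on chromosome 4, minus strand, between Nrf1 and Ube2h in the RefSeq annotation (GRCr8), in the order Mir182, Mir96, Mir183, followed by Mir3553. All 5 mature sequences were matched by name in RefSeq (GRCr8), each at 1 locus. They are shown because the related seeds are what the cluster's 5p members share; capitals mark the seed, bases 2 to 8.
rno-miR-182: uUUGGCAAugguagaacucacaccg
rno-miR-96-5p: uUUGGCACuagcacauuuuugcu
rno-miR-183-5p: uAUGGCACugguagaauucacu
rno-miR-183-3p: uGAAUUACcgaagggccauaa
rno-miR-96-3p: cAAUCAUGugcagugccaauau
Aligned from their first base without gaps, miR-182 and miR-183-5p were identical at 18 of 22 positions, with 5 in the seed. miR-182 and miR-96-5p were identical at 12 of 23 positions, with 6 in the seed. No 2 members had the same seed, and no other mature rat miRNA of the RefSeq table shared a seed with a member.

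Nearly all counted reads of the cluster were miR-182. It had 54712 reads over the D2 libraries, 99.5% of the cluster's reads that day, and 20903 over the D9 libraries. By mean CPM it was number 49 of the 565 miRNAs detected on D2 and number 67 of the 541 detected on D9. miR-96-5p had 159 reads in 17 of 20 libraries on D2 and 37 reads in 8 of 20 on D9. miR-183-3p had 122 reads in 18 libraries on D2 and 64 in 15 libraries on D9. miR-96-3p had 1 read in each of 4 libraries, so no fold change is given for it. What follows therefore rests on miR-182, with miR-96-5p and miR-183-3p near the limit of counting.

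miR-183-5p, the arm with the closest sequence to miR-182, was listed at 0 in all 40 libraries although the other arm of its hairpin had 186 reads. Of the miRNAs at 0 in every library, 100 had their other arm in the table and 54 of these had reads on it. For 23 of them, miR-183-5p included, the other arm had at least as many reads as miR-183-3p. Other examples were let-7d-5p and miR-122-5p. The zeros of miR-183-5p were therefore not read as absence from plasma, and their cause was not tested. The share of miR-182 in the cluster's reads holds only for the reads as counted, with miR-183-5p at 0.

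On D2, miR-182 was higher in the injured rats than in the sham rats. In sham rats 1 to 4 it was 962, 874, 549 and 1760 CPM. In the 16 TBI rats the lowest, median and highest values were 1292, 1777 and 6949 CPM. Sham rat 4 was within the TBI range, and the other sham rats were below every TBI rat, so the groups overlapped through 1 animal. The mean was 2317 ± 1410 CPM (SD, n = 16) in TBI and 1036 ± 514 CPM (SD, n = 4) in sham, a 2.24-fold difference. In edgeR's quasi-likelihood test, the log2 fold change was 1.29 ± 0.36 (SE, adjusted p = 0.0274), number 27 of 565 by p. It was 1 of 4 members with reads that passed the adjusted threshold, against 6.19% of all miRNAs tested. DESeq2 on the same libraries also called miR-182 (1.35, adjusted p = 0.00367). The paper, which used DESeq2 on these libraries, lists miR-182 as upregulated on D2 in TBI, TBI+ and TBI− against sham.

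The difference was smaller in the comparison within a run, which also left out the TBI− rats and TBI+ rats 5 to 7. TBI+ rats 5 to 7 and all TBI− rats came from other runs than the sham rats. Within the run that held sham and TBI+ rats 1 to 4, miR-182 was 1617, 1357, 1590 and 1292 CPM in TBI+, each below sham rat 4 and above the other sham rats. There the log2 fold change was 0.51 ± 0.25 (SE, edgeR adjusted p = 0.271), and 0 of 4 members passed (1 at an unadjusted p under 0.05, 0 with DESeq2), against 4.58% of all miRNAs. With the run as a covariate over all 20 libraries of D2, TBI vs. sham was 0.55 (adjusted p = 0.526). With sham rat 1, 2 or 3 left out the fold stayed about as large (1.20, 1.25 and 1.07) but was not called (adjusted p = 0.126, 0.0789 and 0.149), and without sham rat 4 it was 1.63 and called (adjusted p = 0.0148). Nor was it called with scaling by library total (1.16, adjusted p = 0.0568). Injury and run of library numbers cannot be told apart for most of the injured rats.

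**Figure D1:**
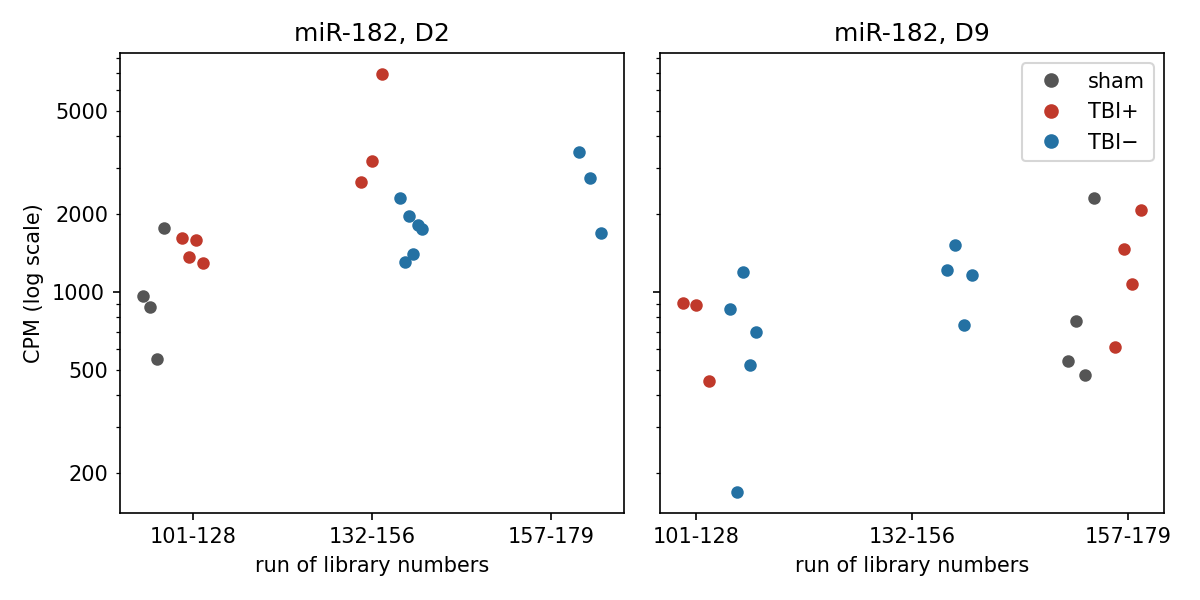
miR-182 in CPM (log axis) in each library on D2 (left) and D9 (right), by run of library numbers on the horizontal axis; each point is 1 rat and colours mark sham, TBI+ and TBI−. On D2 the sham points share their run only with TBI+ rats 1 to 4, at 1292 to 1617 CPM, while the highest point, 6949 CPM, is in the second run.

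By outcome, TBI+ rats 1 to 7 had a lowest, median and highest miR-182 of 1292, 1617 and 6949 CPM on D2. Rat 7 was far above the others. TBI+ vs. sham gave a log2 fold change of 1.46 ± 0.38 (SE, edgeR adjusted p = 0.0241), and 1 of 4 members passed, against 3.19% of all miRNAs. DESeq2 also called miR-182 there (1.54, adjusted p = 0.00325). Without TBI+ rat 7 the edgeR value was 1.00 (adjusted p = 0.0717). With sham rat 1, 2 or 3 left out it was 1.38, 1.43 and 1.28, and not called (adjusted p = 0.110, 0.0624 and 0.109), and without sham rat 4 it was 1.82 and called (adjusted p = 0.00927).

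TBI− rats had a lowest, median and highest miR-182 of 1302, 1809 and 3460 CPM on D2. Each was above sham rats 1 to 3, and 5 of 9 were above sham rat 4. TBI− vs. sham gave 1.13 ± 0.37 (SE, edgeR adjusted p = 0.0631). With edgeR 0 of 4 members passed, 1 at an unadjusted p under 0.05, against 6.19% of all miRNAs, while DESeq2 called miR-182 (1.18, adjusted p = 0.0218). The median was higher in TBI− than in TBI+, and the mean was higher in TBI+ (2664 vs. 2047 CPM).

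No difference of miR-182 between TBI+ and TBI− passed on D2 in the fit of all libraries. Over all libraries it was 0.33, with a 95% confidence interval of −0.26 to 0.92 (edgeR adjusted p = 0.799). No member was called (0 with edgeR and with DESeq2; at an unadjusted p under 0.05, 0 with edgeR and 1 with DESeq2), against 0% of all miRNAs. In the second run alone, with 3 TBI+ and 6 TBI− rats (TBI− rat 6 included), miR-182 was higher in TBI+ (1.31, adjusted p = 0.0452). Without rat 7 the same run gave 0.75 (adjusted p = 0.765) and was not called, although TBI+ rats 5 and 6 (2649 and 3197 CPM) were above every TBI− rat of that run (highest 2306 CPM). Over all libraries, which mix the runs, the value without rat 7 was −0.090.

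On D9, miR-182 did not separate injured from sham rats. In sham rats 1 to 4 it was 540, 771, 475 and 2300 CPM. In the 16 TBI rats the lowest, median and highest values were 169, 899 and 2073 CPM. Sham rat 4, the highest sham rat on both days, was above every injured rat, 2 injured rats were below every sham rat, and the others were within the sham range. TBI vs. sham was 0.020, with a 95% confidence interval of −0.82 to 0.86 (edgeR adjusted p = 0.984). Without sham rat 4 it was 0.82 (adjusted p = 0.342). None of 4 members passed (0 with edgeR and DESeq2, 0 at an unadjusted p under 0.05), against 3.51% of all miRNAs.

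The outcome groups gave the same picture on D9. TBI+ vs. sham was 0.16 (edgeR adjusted p = 0.926), with 0 members called against 1.85% of all miRNAs. TBI− vs. sham was −0.10 (adjusted p = 0.951), with 0 members against 4.81%. Without sham rat 4, TBI+ vs. sham was 0.96 (adjusted p = 0.266) and TBI− vs. sham changed sign to 0.70 (adjusted p = 0.492). TBI+ vs. TBI− was 0.27, with a 95% confidence interval of −0.47 to 1.01 (adjusted p = 0.959), with 0 members against 0%. Neither tool called a member in these comparisons, and 0 members had an unadjusted p under 0.05. Within the run shared by sham and TBI+ rats 1 to 4 the log2 fold change was 0.40 (adjusted p = 0.789), with 0 members called by either tool against 2.05%.

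Between the days, miR-182 was lower on D9 than on D2 in 14 of 16 injured rats. In TBI− rats it was lower in 9 of 9, and D9 was between 0.129 and 0.872 of the D2 value, with a median of 0.413. In TBI+ rats it was lower in 5 of 7, and the ratio was between 0.0649 in rat 7 and 1.60 in rat 4. In sham rats it was lower in 3 of 4, with a median ratio of 0.874. TBI+ rats 2 and 4 and sham rat 4 were the exceptions, higher on D9. TBI− rats 5 and 6 had the smallest falls among TBI− rats (ratios of 0.673 and 0.872). With the placing used here they were the only rats with both libraries in the same run, which for rat 6 is uncertain. TBI− rat 3, which changed run, had a ratio of 0.607. The first run held TBI+ libraries of both days from different rats, and there miR-182 was 1292 to 1617 CPM on D2 (rats 1 to 4) and 451 to 908 CPM on D9 (rats 5 to 7), without overlap. In the second run, TBI− libraries were 1302 to 2306 CPM on D2 (n = 6, TBI− rat 6 included) and 740 to 1521 CPM on D9 (n = 4), with overlap.

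**Figure D2:**
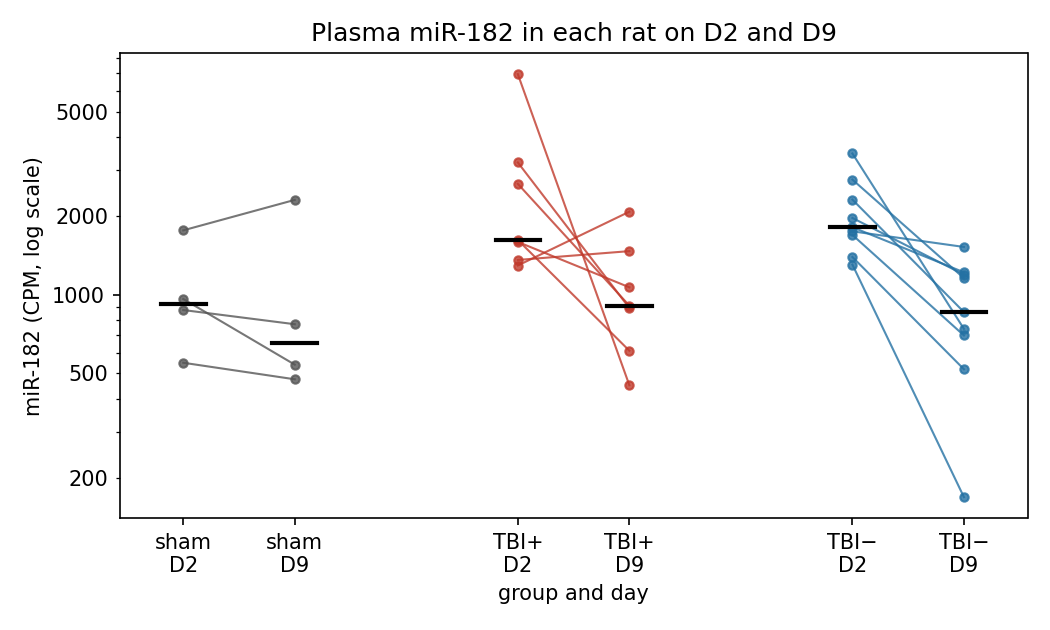
miR-182 in CPM (log axis) on D2 and D9 in each rat, by group; a line joins the 2 libraries of a rat and black bars are group medians. All 9 TBI− lines and 5 of 7 TBI+ lines fall, and sham rat 4 is the highest sham rat on both days.

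The log2 fold change of D9 vs. D2 was −1.33 ± 0.38 in TBI+ (SE, edgeR adjusted p = 0.0129) and −1.19 ± 0.34 in TBI− (SE, adjusted p = 0.00763). In sham it was −0.046, with a 95% confidence interval of −1.05 to 0.96 (adjusted p = 1). In TBI+ 2 of 4 members passed against 16.0% of all miRNAs, in TBI− 1 of 4 against 20.1%, and in sham 0 of 4 against 5.68% (0 with DESeq2, 0 at an unadjusted p under 0.05). Many miRNAs differed between the days, and the count in TBI− was close to that background. Without TBI+ rat 7 the TBI+ value was −0.67 (adjusted p = 0.228). These fits did not pair the days of a rat. With the rat as a block, miR-182 was −1.10 in TBI+ (edgeR adjusted p = 0.00386) and −1.34 in TBI− (adjusted p = 4.65e-06).

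An index of red cell lysis, the log2 ratio of miR-451-5p to miR-23a-3p, moved with the day. In TBI rats it was −0.28 ± 0.64 on D2 and 1.28 ± 0.63 on D9 (SD, n = 16), and in sham rats −0.52 ± 0.66 and 1.13 ± 0.23 (SD, n = 4). With the index as a covariate, the D9 vs. D2 values of miR-182 were −0.53 in TBI+ (edgeR adjusted p = 0.605) and −0.50 in TBI− (adjusted p = 0.610). Over all miRNAs, 29 of 581 were called in TBI+ and 31 of 581 in TBI− with this covariate, against 16.0% and 20.1% without it. The loss of calls was thus not particular to miR-182. The part of lysis in the difference between days was not tested, since the index and the day changed together.

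The change of the TBI vs. sham difference from D2 to D9 was itself tested. For miR-182 it was −1.21, with a 95% confidence interval of −2.34 to −0.083 (edgeR adjusted p = 0.274). No member passed (0 with edgeR and DESeq2, 1 at an unadjusted p under 0.05), against 3.27% of all miRNAs. The call on D2 and its absence on D9 are thus not shown to differ.

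Exact 2-sided permutation tests of miR-182 over rats, added after the fits had been seen, were run for 12 comparisons and adjusted over the 12. Of the comparisons with sham on D2, TBI (p = 0.00619, adjusted 0.0280) and TBI− (p = 0.00699, adjusted 0.0280) passed the exact test, and TBI+ did not (p = 0.0364, adjusted 0.109). Between the days the exact permutation of signs within rats passed in TBI− (p = 0.00391, the smallest possible, adjusted 0.0280) and not in TBI+ (p = 0.0938, adjusted 0.188). With 4 sham rats that exact test gave p = 0.5 and cannot go below 0.125. The change of the difference gave p = 0.0842 (adjusted 0.188) in the exact test, and TBI+ vs. TBI− on D2 gave p = 0.619. On D9 the exact p was 0.928 for TBI, 0.688 for TBI+ and 0.878 for TBI− vs. sham, and 0.528 for TBI+ vs. TBI−. The calls of edgeR for TBI+ vs. sham and for the days in TBI+ were thus not reproduced by the exact tests. Adjustment over 12 comparisons is milder than that of edgeR over all miRNAs, so passing does not mean the same in both. For TBI− vs. sham on D2 the unadjusted p was lower in edgeR (0.00402) than in the exact test (0.00699), although only the latter passed.

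miR-96-5p, the member with a hearing role best known from inherited deafness, was counted in few reads. In sham rats on D2 it had 0, 0, 3 and 6 reads. In TBI+ rats it had 1 to 29 reads, with a highest value of 26.1 CPM in rat 7, and in TBI− rats 0 to 17. The groups overlapped. TBI+ vs. sham was 2.14 ± 0.77 (SE, edgeR adjusted p = 0.124), and with DESeq2 2.25 (adjusted p = 0.0499). With 1 sham rat left out it was 1.66 to 2.92 and not called by edgeR. Within the run shared with sham rats it was 1.51 (edgeR adjusted p = 0.368). TBI− vs. sham was 1.10 (edgeR adjusted p = 0.461). On D9 every sham library was at 0, while the TBI libraries had 0 to 14 reads and at most 10.1 CPM. Since 3 reads were 8.38 CPM or more in those sham libraries, a difference was not detectable at this depth and no fold change is given.

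Between the days miR-96-5p was lower on D9 in 7 of 7 TBI+ rats and in 7 of 9 TBI− rats. In TBI+ the difference was −2.23 ± 0.75 (SE, edgeR adjusted p = 0.0322). Without TBI+ rat 1, 2, 3 or 5 the value was about as large (−2.30, −2.21, −2.45 and −2.13) but not called (adjusted p = 0.0615, 0.0517, 0.0537 and 0.0720). Without rat 7 it was smaller, −1.51 (adjusted p = 0.228), as it was with the lysis index as a covariate, −1.37 (adjusted p = 0.518). In TBI− it was −1.39 ± 0.70 (SE, adjusted p = 0.162), and with the rat as a replicate block −2.21 (adjusted p = 0.0183). TBI− rat 3, with 14 reads on D9, was the main exception, and without it the value was −3.15 (adjusted p = 0.00218).

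miR-183-3p had 1, 4, 2 and 2 reads in sham rats on D2, 0 to 22 in TBI+ and 0 to 14 in TBI−. TBI vs. sham on D2 was 1.20 ± 0.67 (SE, edgeR adjusted p = 0.351). On D9 the sham libraries had 0, 3, 0 and 1 reads, at the limit of counting, and no fold change is given. Between the days it was −1.35 ± 0.64 in TBI+ (SE, adjusted p = 0.138) and −0.18 ± 0.55 in TBI− (SE, adjusted p = 0.893). Per 1000 reads of miR-182 there were 2.48 reads of miR-183-3p in TBI+ on D2 and 2.54 on D9, and 1.99 and 3.33 in TBI−. The same ratio for miR-96-5p was 3.62 and 2.41 in TBI+, and 2.29 and 1.54 in TBI−.

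**Figure D3:**
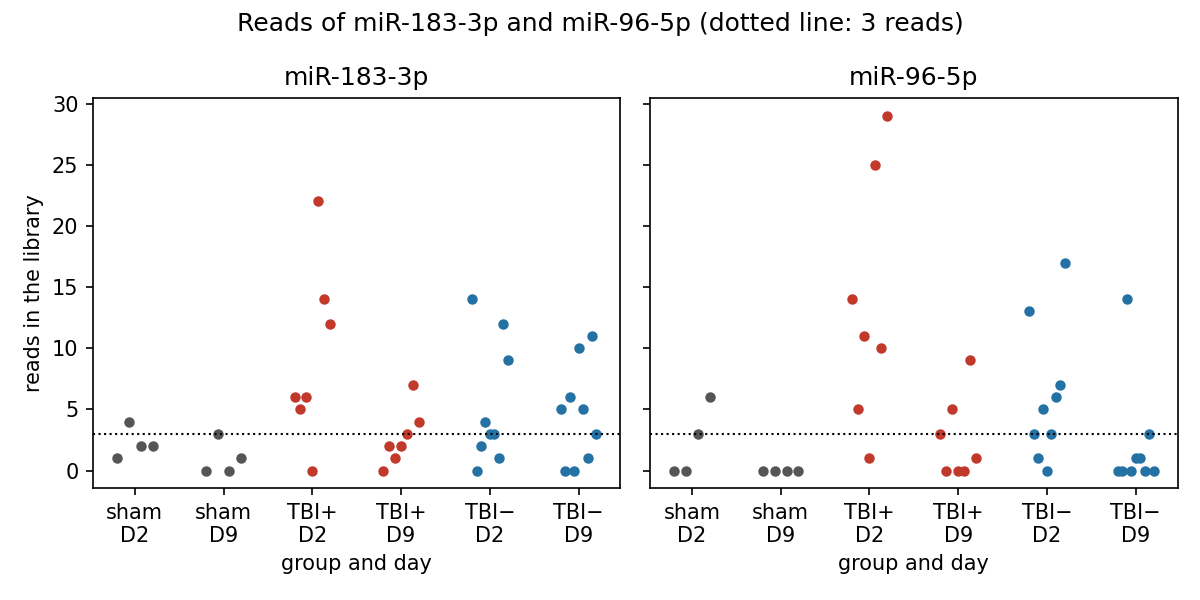
Reads of miR-183-3p (left) and miR-96-5p (right) in each library by group and day; each point is 1 rat and the dotted line is at 3 reads. Sham libraries of D9 have at most 3 reads of either miRNA, and the highest point is 29 reads of miR-96-5p in TBI+ on D2.

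Among 269 other miRNAs with a mean of at least 10 CPM, those most like miR-182 over the 40 libraries were miR-107-3p (Spearman rho 0.737), miR-103-3p (0.735), miR-125b-2-3p (0.720), miR-99b-5p (0.689) and miR-212-3p (0.687). The libraries share depth, day and group, so a common day difference enters these values. After the mean of each group and day was subtracted, the 5 most alike were miR-125b-2-3p (0.730), miR-205 (0.685), miR-27a-3p (0.550), miR-30a-3p (0.546) and miR-204-5p (0.542). Only miR-125b-2-3p was in both lists. Of the 9 miRNAs, miR-212-3p, an activity-regulated neuronal miRNA, was the one called in D2 TBI vs. sham (1.24 ± 0.27, SE, edgeR adjusted p = 0.00392). The same could not be computed for miR-183-5p, which was at 0 throughout.

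Lists of tissue markers were read beside miR-182 in the same fits. On D2, 7 of 9 brain miRNAs with reads were higher in TBI than in sham and 0 were lower, against 18 higher and 17 lower of all 565, with a median log2 fold change of 1.30 against 0.090 over all miRNAs. The 3 with the lowest p were miR-124-3p, miR-124-5p and miR-129-5p. Most list members with reads, miR-124-3p and miR-129-5p among them, were picked by the paper because they were higher on D2 in these libraries. The counts of this list on D2 and from D2 to D9 are thus no independent test. Both arms of miR-124, a neuronal miRNA, were at 0 in every sham library. On D2 both were present in 16 of 16 TBI libraries, at 31.1 ± 16.1 CPM for the 3p arm (SD). On D9 the 3p arm had reads in 4 of 16 TBI libraries and the 5p arm in 3. The summed brain list on D2 was 9775 ± 3186 CPM in TBI+, 5863 ± 1441 CPM in TBI− and 6420 ± 1608 CPM in sham (SD), most of it miR-128-3p. Its sum was thus lower in TBI− than in sham, unlike most of its members. miR-9a-3p and miR-434-3p were at 0 throughout. From D2 to D9, 6 of the 9 were lower in TBI+, against 65 of all 581 miRNAs, and 7 in TBI−, against 75 of 581. Whether brain miRNAs and miR-182 share a source was not tested.

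Of the eye and sense organ list, which also holds miR-124-3p, 1 of 5 was higher in TBI on D2 (18 of all 565 were), and that was miR-124-3p. The median of the list was −0.058. Its other members, among them the retinal pigment epithelium miRNA miR-204-5p as the most abundant, did not pass. No member with reads passed on D2 in the epithelium list (0 of 7, median −0.11), the red cell list (0 of 7, 0.23), the platelet list (0 of 6, −0.060), the liver list (0 of 3, 0.54) or the muscle list (0 of 2, −0.19), against 0.090 over all miRNAs. Their most abundant members were miR-375-3p, miR-92a-3p, miR-191a-5p, miR-192-5p and miR-133b-3p. At 0 throughout were miR-203a-3p, miR-126a-5p, miR-122-5p, miR-1-3p and miR-133a-3p. In the lymphocyte and myeloid list (median −0.67) 2 of 6 were lower in TBI, against 17 of all 565, among them miR-150-5p, its most abundant member (−0.85 ± 0.26, SE, edgeR adjusted p = 0.0443). The summed epithelium list on D2 had a mean of 6837 ± 3444 CPM in TBI and 6255 ± 492 CPM in sham (SD), and the medians ran the other way, 5312 and 6447 CPM. The red cell sum ran against its median fold change, with 133525 ± 24771 CPM in TBI and 166049 ± 37971 CPM in sham (SD). The muscle median rests on 2 miRNAs, of which miR-206-3p had 11 reads in all. The other, miR-133b-3p, was 372 ± 289 CPM in TBI and 229 ± 76.4 CPM in sham (SD). From D2 to D9, 3 of 7 red cell miRNAs were higher in TBI+, against 28 of all 581 miRNAs, and 2 in TBI−, against 42 of 581. Of the 2 muscle miRNAs with reads, miR-133b-3p was lower on D9 in both groups, from 440 to 51.3 CPM in TBI+ and from 320 to 65.6 CPM in TBI− (means). In sham rats its mean also went down, from 229 to 94.7 CPM, and it was not called. In the other lists, those called in TBI+ were 1 of 6 lymphocyte and myeloid miRNAs and 1 of 3 liver miRNAs (higher) and 1 of 5 eye miRNAs (lower). In TBI− they were 2 of 6 platelet miRNAs, 1 lymphocyte and myeloid and 1 epithelium miRNA (higher), and 1 platelet, 1 eye and 1 liver miRNA (lower). In sham rats they were 2 of 6 platelet miRNAs and 1 each of the lymphocyte and myeloid, liver, epithelium and eye lists (higher) and 1 of 9 brain miRNAs (lower), with 0 red cell and 0 muscle miRNAs, against 15 higher and 18 lower of all 581. The part of these cell types in the result was not tested, and in plasma a release from more cells and more miRNA released per cell cannot be told apart.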

How the data were processed

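Whole-number counts per miRNA were deposited by the authors for 40 plasma libraries. Per the submitters' processing notes, reads were checked with FastQC 11.8, trimmed with Trimmomatic 0.36, aligned with Bowtie2 and counted with featureCounts. From these counts, CPM was computed with the total over all rows. Tests used edgeR 4.0.16 (quasi-likelihood, TMM) in R 4.3.3, per day on 20 libraries or over both days on 40, with Benjamini-Hochberg adjustment over all miRNAs with any read and a threshold of 0.05. Fits within 1 run or with a rat left out used fewer libraries. DESeq2 1.42.0 was an alternative. Other values were computed in Python 3.11.15. The steps were tested on simulated counts.

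Named miRNAs were all members, the 5 most like miR-182 by either measure, and, of each marker list, the most abundant member and at most 3 with the lowest p. Also named were list members at 0 in every library, let-7d-5p and miR-122-5p as examples of such zeros, and the miRNAs of the lysis index. The members and lists were chosen with earlier results of these data known. Leaving out TBI rats in turn, DESeq2 within 1 run and the exact permutation tests for miR-182 (log2 of CPM + 1) were added after the fits had been seen. miR-486 of the red cell list had no row. The same rats were sampled on both days, as the labels state. Deviations from group means did not correlate between the days of a rat (median r = −0.055 over 20 rats, above 0.1 in 5). Floors of 3 reads cover counting error alone, and intervals come from the spread between libraries.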

Additional observations from a re-analysis of the deposited data

Results flagged for a closer look

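Of 17 groups of libraries examined for miR-182, miR-183-3p and miR-96-5p, 6 had a highest library set apart from the others. The rule would pick out about 1 in 20 groups by chance if values were normally distributed, which was not tested here. miR-182 stood apart in sham rat 4 on D9 (2300 CPM) and in TBI+ rat 7 on D2 (6949 CPM). miR-96-5p stood apart in that same TBI+ library (26.1 CPM, 29 reads) and in TBI− rat 3 on D9 (10.1 CPM, 14 reads). miR-183-3p stood apart in sham rat 2 on D9 (18.5 CPM, from 3 reads) and in TBI− rat 5 on D9 (12.3 CPM, 10 reads).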

How the results depend on the processing

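For miR-182, 75.8% of 190 alternative values kept direction and side of the threshold, while 23 changed sign, 16 lost and 7 gained a call. On D2 the TBI vs. sham value lost its call with library total scaling (1.16), with the run as a covariate (0.55) and with the animal number as a replicate block (0.78; TBI+ vs. sham 0.88). Animal numbers of different groups share only a number, so the block is no pairing there. With 1 rat left out, TBI vs. sham was 1.06 to 1.63 and TBI+ vs. sham 1.00 to 1.82. TBI− vs. sham, where only sham rats were left out, was 0.89 to 1.47. Leaving out a TBI rat never ended the TBI vs. sham call, and leaving out a sham rat ended it for 3 of 4. TBI+ vs. sham lost its call in the permutation test (1.22). TBI− vs. sham passed with DESeq2 (1.18), the lysis index (1.17) and without sham rat 4 (1.47). It also passed the permutation test (1.04), where p was adjusted over 12 comparisons of miR-182 and not over all miRNAs. TBI+ vs. TBI− passed in 1 run (1.31; without TBI+ rat 5, 1.54; without rat 6, 1.45) and was −0.090 to 0.52 with 1 TBI+ rat left out.

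On D9, TBI vs. sham changed sign with DESeq2 (−0.094), RLE (−0.10), library total (−0.080), filterByExpr (−0.065) and thinning (−0.14), and was −0.23 to 0.82 with 1 sham rat left out. TBI+ vs. sham changed sign with thinning (−0.014; −0.086 to 0.96 with 1 rat left out), and TBI− vs. sham with the block (0.13) and the lysis index (0.051; −0.35 to 0.70). D9 vs. D2 in sham changed sign with DESeq2 (0.19), RLE (0.20), filterByExpr (0.0072), the lysis index (0.60) and thinning (0.25), and was −0.37 to 0.11 with 1 rat left out. D9 vs. D2 lost its call with the lysis index in TBI+ (−0.53) and TBI− (−0.50), and in TBI+ with the sign permutation (−1.22); with 1 rat left out it was −1.66 to −0.67 in TBI+ and −1.38 to −1.07 in TBI−. With the rat as a block, which pairs the days, it was −1.10 and −1.34, and miR-182 kept its calls.

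TBI+ vs. TBI− on D9 changed sign for miR-96-5p with thinning (−0.39) and in 1 run (−0.21), and for miR-183-3p likewise (0.58 and 0.29). D9 vs. D2 of miR-183-3p in TBI− changed sign with the lysis index (0.067), and was −0.58 to 0.0083 with 1 rat left out. The number of members called on D2 became 0 in TBI vs. sham with library total, block and run (0 to 1 with 1 rat left out), 2 (DESeq2) or 0 (block) in TBI+ vs. sham (0 to 1), 1 in TBI− vs. sham with DESeq2 and the lysis index (0 to 1), and 1 in TBI+ vs. TBI− in 1 run. Over all miRNAs, calls in TBI vs. sham were 38 (library total), 30 (block) and 19 (run) of 565, against 35 in the main fit. In TBI+ vs. sham they were 34 (DESeq2) and 20 (block), against 18. In TBI− vs. sham they were 41 (DESeq2) and 37 (lysis index), against 35. In TBI+ vs. TBI− 1 of 531 was called in 1 run. In D9 vs. D2 the number of members called became 0 with the lysis index in both groups and 0 to 2 in TBI+ with 1 rat left out. In TBI− it became 2 with the block and 1 to 2 with 1 rat left out. Calls over all miRNAs fell too: with the lysis index 29 of 581 in TBI+ and 31 of 581 in TBI− passed, against 16.0% and 20.1% in the main fits. With 1 rat left out they were 52 to 82 in TBI+. In TBI− they changed less with the block and with 1 rat left out than with the lysis index. Causes of these shifts were not tested. Few sham rats limit every comparison with sham, and shallow sham libraries those that use D9.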
